A study of Saccharomyces cerevisiae with 10 samples.

Results

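Expression in haploid budding yeast (Saccharomyces cerevisiae) that lacked SUA5 was compared with that in wild-type cells soon after the deletion strain was obtained. The comparison took 7 of the series' 10 Affymetrix arrays by their titles, 4 of the deletion at its first restreaking and 3 of the wild type, and all 5449 genes of S. cerevisiae measured by a probe set that is annotated to 1 gene. The deletion strains were mating type a spores dissected from BY4743, a laboratory diploid that was heterozygous for the deletion, and they were restreaked on plates of rich medium (YPD). The labels place this sampling 35 generations after sporulation. The wild type was BY4742, a laboratory haploid of mating type alpha. Both strains were grown in 5 ml of liquid YPD and harvested in mid-log growth. The wild type was not a spore of the same diploid, so mating type and auxotrophic markers differed between the sides as well as SUA5, and their parts in a difference cannot be told apart. The series text describes the clones of each group as independent, but clones 1 and 2 of the deletion resembled each other, as did clones 3 and 4.

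Sua5 joins threonine, bicarbonate and ATP into threonylcarbamoyl-AMP, the donor from which the KEOPS complex makes the modified base t6A next to the anticodon of tRNAs that read ANN codons. The modification helps these tRNAs to pair with their codons and to read start codons correctly. SUA5 was first found as a suppressor of an aberrant upstream start codon in CYC1, the gene of the main cytochrome c, and Sua5 is also known to bind telomeric DNA and to be needed for normal telomere length.

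The deleted gene and the mating genes checked the labels. SUA5 read 0.342, 5.10, 3.17 and 1.20 on the deletion arrays and 506, 522 and 532 on the wild-type arrays, at least 40.5-fold lower in the deletion (adjusted p = 1.66e-13, limma). All 4 deletion arrays lay under the background limit, which is percentile 95 of an array's probe sets for the fission yeast Schizosaccharomyces pombe and ran from 10.8 to 17.5 over the series. Of the a-specific mating genes 8 of 9 were higher and of the alpha-specific genes 6 of 6 were lower. The exception was HMRA2 (log2 change -0.89), a silent copy that shares sequence with the alpha2 gene. ASG7, an a-specific regulator of pheromone signalling, read 80.5, 81.8, 76.6 and 78.2 against 27.1, 25.97 and 21.9, the smallest rise of the list. Of 47 probe sets for reporter and other control sequences, 1 was at least 10-fold above the wild type, and it read 7563, 7775, 7149 and 7382 on the deletion arrays and 14.97, 12.9 and 7.26 on the wild-type arrays. The median intensity over the tested genes was 602 to 666 on each array of the series. The small number of arrays limits how precise the values are.

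Most genes differed. Of the 5449 genes, 79.0% passed the test (adjusted p under 0.05), with 2262 higher (41.5%) and 2044 lower (37.5%), and the arrays of the groups did not overlap for 76.7%. Counts of gene lists below are to be read against the shares higher and lower, and a count near them is no result about the list. A lack of overlap in a named gene is likewise shared with most genes. At least 2-fold changes were called for 13.0% of genes, 559 rises (10.3%) and 149 falls (2.73%). With equal array medians these were 480 rises and 218 falls, and after quantile normalization 394 and 232. At least 4-fold there were 141 rises and 27 falls, and at least 8-fold 44 and 10. The median change of all genes was 0.03 on the log2 scale and the median size of a change 0.38. Setting the array medians equal shifted that median by -0.11 and quantile normalization by -0.10, so small changes are best read against that shift. The share of called genes that were higher was then 44.2% and 42.9% in place of 52.5%.

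**Figure D1:**
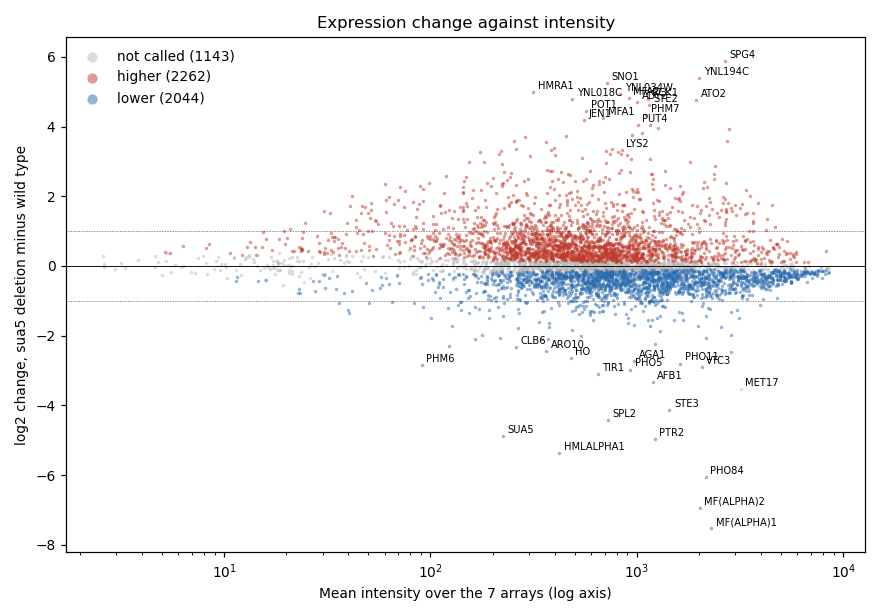
Log2 change of each of the 5449 genes (deletion minus wild type) against its mean intensity over the 7 arrays on a log axis, with higher genes in red, lower genes in blue and others in grey. The rises of at least 2-fold (559) outnumbered the falls (149), and the farthest points below 0 outside SUA5 and the mating genes were PHO84, PTR2 and SPL2.

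The change depended on how bright a gene was. With genes split into 5 equal groups by mean over all 10 arrays, in the dimmest, 50.4% were higher and 20.9% lower, with a median log2 change of 0.25, and in the brightest 27.3% were higher and 58.2% lower, with a median of -0.16. After quantile normalization these medians were -0.14 and -0.05, so the order along brightness rested on the scaling. By gene length the longest of 5 such groups, of 2106 bases or more, had a median of -0.17, 309 genes higher and 569 lower, against 0.11 in the shortest. Long genes also had the lowest median after quantile normalization (-0.24).

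Most calls were shared by both pairs of deletion clones. Against the wild type, 4159 genes passed with clones 1 and 2 alone and 4186 with clones 3 and 4 alone, and 3878 passed with both. The direction was the same in both pairs for 4305 of the 4306 genes called with all clones. These genes were called from the same clones and wild-type arrays, which favours such agreement. Of the 708 changes of at least 2-fold, 707 were called in the same direction with either pair, although both pairs were set against the same wild-type arrays. In 2 genes the pairs were called in opposite directions. LYS9, of lysine synthesis, read 1518, 1355, 2919 and 2832 against 1867, 1674 and 1827, so that clones 3 and 4 were above all wild-type arrays and clones 1 and 2 below. HXT4, a glucose transporter gene, read 1569, 1627, 1222 and 1203 against 1408, 1363 and 1370.5, with clones 1 and 2 above and clones 3 and 4 below. The auxotrophic marker LYS2 read 15.6, 9.34, 2953 and 2890.0 against 11.1, 17.4 and 10.9 and MET17 10.004, 15.3, 4898 and 4662 against 4192, 4176 and 4381, so clones 3 and 4 also differed from clones 1 and 2 in 2 marker genes. LYS2 passed and MET17 did not (adjusted p = 0.0451 and 0.0544). The call of LYS2 was lost without clone 3 or 4 or any 1 wild-type array (adjusted p = 0.0817 to 0.134), and MET17 passed without clone 3 or 4 (adjusted p = 0.00691 to 0.0089). The part of these markers in other differences between the clones was not tested.

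The 12 largest rises outside the mating genes and markers held several genes for the use of carbon sources other than glucose. Besides SPG4 of stationary phase, they were YNL194C, a membrane protein gene of the Sur7 family, SNO1 of vitamin B6 synthesis, the uncharacterised paralogs YNL034W and YNL018C, the kinase gene RCK1, ATO2, ADY2, POT1, PHM7, JEN1 and PUT4. The probe set of YNL034W is shared with another gene. ADY2, an acetate transporter, read 2231, 2223, 1167 and 1281 on the deletion arrays and 52.3, 39.8 and 51.6 on the wild-type arrays. Every deletion array was above every wild-type array, which the choice of the 12 required, and the rise was 26.2-fold (log2 change 4.71 ± 0.20, SE). Its relative ATO2 read 3755, 3577, 2807 and 3097 on the deletion arrays and 115, 92.6 and 114 on the wild-type arrays, 26.9-fold higher. JEN1, the transporter of lactate and pyruvate, read 1142, 1304, 634 and 695 on the deletion arrays and 22.2, 41.7 and 40.7 on the wild-type arrays, 18.3-fold higher. POT1, the last enzyme of peroxisomal fatty acid oxidation, read 1123, 1170.2, 732 and 866 on the deletion arrays and 32.5, 21.8 and 30.96 on the wild-type arrays, 22.01-fold higher. In all of these genes clones 3 and 4 were lower than clones 1 and 2 and far above the wild type.

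PUT4, the proline permease, read 2315, 1846, 1286 and 1374 on the deletion arrays and 80.2, 85.1 and 91.9 on the wild-type arrays, 16.5-fold higher. PHM7, a membrane protein of unknown function, read 2247, 2140.4, 1462 and 1663 on the deletion arrays and 78.2, 61.9 and 93.5 on the wild-type arrays, 20.1-fold higher. YNL194C read 3922, 3784, 2815 and 3305 on the deletion arrays and 72.9, 56.9 and 70.3 on the wild-type arrays, 41.8-fold higher. Their groups were separated by a wide gap on all arrays. SNO1 read 1194, 1104, 1367 and 1301 on the deletion arrays and 14.6, 15.1 and 22.5 on the wild-type arrays, and 2 of its wild-type arrays were above the background limit, so its 37.8-fold rise is imprecise. Of the 12 rises, clones 3 and 4 both lay below clones 1 and 2 in 9 and both above in 1. Over all 559 rises of at least 2-fold these numbers were 220 and 141.

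The 12 largest falls were led by genes of the phosphate regulon, which are induced when phosphate is scarce. PHO84, the high-affinity phosphate transporter, read 52.1, 53.02, 71.5 and 61.5 on the deletion arrays and 5046, 5020.1 and 4769.7 on the wild-type arrays, 66.02-fold lower (log2 change -6.04 ± 0.087, SE). PHO5, a secreted acid phosphatase, read 242, 215, 227 and 212 on the deletion arrays and 1810.2, 1824 and 1968 on the wild-type arrays, 7.85-fold lower. The deletion arrays lay within a narrow range for both. SPL2, an inhibitor of low-affinity phosphate uptake, read 75.9, 75.1, 39.999 and 54.1 against 1612, 1719 and 1477, and VTC3, PHM6 and PHO11 were also among the 12. PHM6 was above the background limit on 2 of the 4 deletion arrays, and the probe set of PHO11 is shared with another gene.

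Outside phosphate, PTR2, the transporter of di- and tripeptides, read 75.8, 60.7, 70.7 and 80.99 on the deletion arrays and 2817, 2787 and 2649 on the wild-type arrays, 31.5-fold lower. TIR1, a cell wall mannoprotein, read 152, 147, 135 and 125 on the deletion arrays and 1247, 1421 and 1287 on the wild-type arrays, 8.56-fold lower. ARO10, a decarboxylase of aromatic amino acid breakdown, read 130.4, 130.3, 96.8 and 102 on the deletion arrays and 699.8, 706 and 683 on the wild-type arrays, 5.48-fold lower. The choice of the 12 falls required that the groups do not overlap. CLB6, a cyclin of S phase, read 77.6, 79.3, 105.2 and 79.5 on the deletion arrays and 508, 524 and 451 on the wild-type arrays, 5.05-fold lower. HO, the endonuclease of mating type switching, read 148, 99.4, 154 and 151 on the deletion arrays and 886, 931 and 979.6 on the wild-type arrays, 6.22-fold lower. AGA1, the anchor of the agglutinin of a cells, read 244, 266, 294 and 291 on the deletion arrays and 1973, 2027 and 1688 on the wild-type arrays, 6.60-fold lower, although AGA2, the gene of the other agglutinin subunit, was among the a-specific genes that were higher. Clones 3 and 4 both lay below clones 1 and 2 in 3 of the 12 falls and both above in 5.

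**Figure D2:**
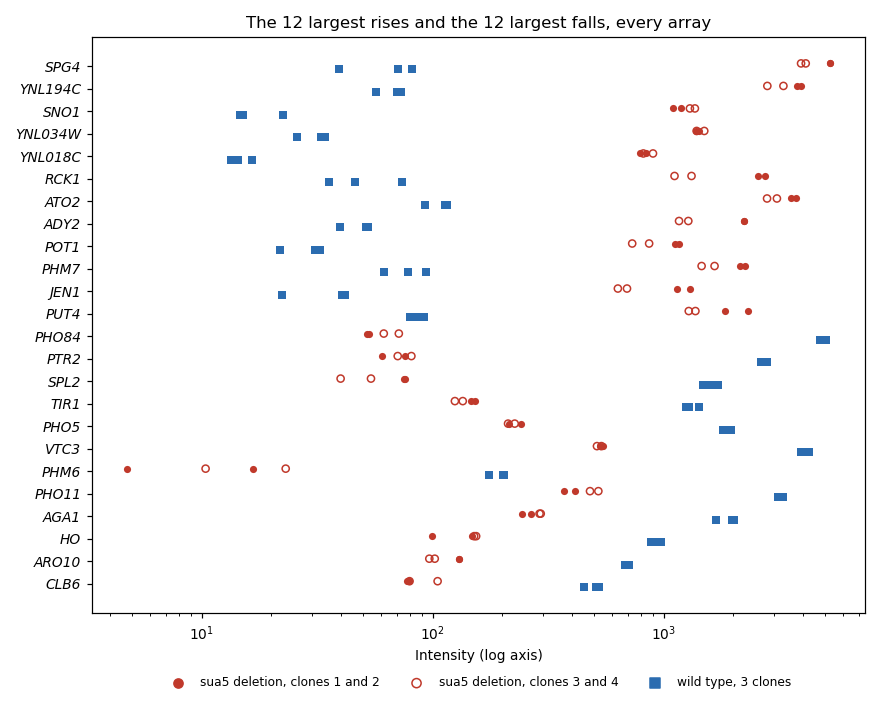
Intensity on each of the 7 arrays, on a log axis, of the 12 largest rises and the 12 largest falls, with deletion clones 1 and 2 as filled circles, clones 3 and 4 as open circles and wild-type clones as squares. The groups do not overlap in any of the genes, which the choice of genes required, and clones 3 and 4 lie below clones 1 and 2 in 9 of the 12 rises.

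Some genes were seen on 1 side only. Above the background limit on all 4 deletion arrays and at or under it on all 3 wild-type arrays were 15 genes, and 3 genes showed the reverse. Those seen in the wild type only were SUA5, HMLALPHA1 and RNP1, which encodes an RNA-binding protein and lay at 9.85, 12.2, 9.63 and 10.1 against 18.96, 23.02 and 18.1. Among those seen in the deletion only was HMRA1, the a1 gene, at 569, 559, 551 and 513 against 0.877, 1.04 and 3.15. YGL262W, of unknown function, read 43.3, 45.9, 168 and 149 on the deletion arrays and 6.91, 2.13 and 3.96 on the wild-type arrays, at least 5.93-fold higher, with clones 3 and 4 above clones 1 and 2. YDR169C-A read 82.4, 79.1, 79.4 and 85.4 on the deletion arrays and 11.1, 13.5 and 10.8 on the wild-type arrays, at least 5.75-fold higher. BSC4 and YLR012C were at least 4.77-fold and 4.49-fold higher. The seripauperin gene PAU21, whose probe set is shared with another gene, was at least 3.59-fold higher. DAK2, a dihydroxyacetone kinase, read 42.4, 28.4, 61.2 and 66.1 on the deletion arrays and 6.07, 4.42 and 6.02 on the wild-type arrays, at least 3.32-fold higher. In it too clones 3 and 4 were the higher pair. DAL80, a GATA repressor of nitrogen use genes, read 26.2, 38.5, 50.8 and 36.9 on the deletion arrays and 12.2, 1.42 and 7.26 on the wild-type arrays, at least 2.62-fold higher. Under the limit on all 7 arrays were 23 genes.

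Glycogen genes were mostly higher, and the main genes of glucose breakdown changed little. The cells grew on glucose, where yeast runs glycolysis to ethanol and represses genes for other carbon sources. Of the main glycolytic and fermentation enzymes 13 of 14 fell, each by little (median log2 change -0.16), beside 37.5% of all genes. In the brightest of the 5 intensity groups 58.2% of genes fell, with a median that was also -0.16. After quantile normalization 5 of the 14 enzymes fell and their median was -0.02, where that of all genes was -0.07. With equal array medians 14 fell, with a median of -0.28. The most lowered were the phosphofructokinase subunits PFK2 (log2 change -0.45) and PFK1 (-0.37). Of the glycogen genes 14 of 15 rose, with a median of 0.82, beside 41.5% of all genes. GAC1, the subunit that directs protein phosphatase 1 to glycogen synthase, read 398, 417, 290.0 and 327 on the deletion arrays and 17.7, 28.6 and 25.8 on the wild-type arrays, 9.31-fold higher. GLC3, the branching enzyme, read 5268, 5249, 4897 and 4876 against 1230.0, 865 and 1233, and the synthases GSY1 and GSY2 rose by 1.21 and 1.53 on the log2 scale. The groups were apart for all 4 genes. GPH1, glycogen phosphorylase, and GDB1, the debranching enzyme, which break glycogen down, rose as well (0.62 and 1.92).

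Of the trehalose genes 6 of 7 rose (median 0.83). The synthase subunit genes TPS1 and TPS2 rose by 0.73 and 1.45 and the trehalase genes NTH1, NTH2 and ATH1 by 0.68 to 0.89 on the log2 scale, so that genes of both synthesis and breakdown were higher. In the pentose phosphate pathway the list split, with 5 of 11 genes higher and 4 lower. The 4 large rises were SOL4, a 6-phosphogluconolactonase, TKL2, a transketolase, GND2 and NQM1. SOL4 read 2221, 2080.5, 1624 and 1837 on the deletion arrays and 121, 74.6 and 119 on the wild-type arrays, 16.4-fold higher. TKL2 read 1538, 1392, 802 and 846 on the deletion arrays and 122, 123 and 140.5 on the wild-type arrays, with clones 3 and 4 below clones 1 and 2. TKL2 lies next to LYS2 on the chromosome, the marker by which the clones also differed. The core enzymes TAL1, RKI1, GND1 and SOL3 fell by 0.25 to 0.39 on the log2 scale.

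Genes for acetate, glycerol and glucose synthesis were mostly higher. In acetaldehyde and acetate metabolism 7 of 10 rose (median 0.91). ALD3, a cytosolic aldehyde dehydrogenase, read 2621, 2344, 1711 and 1825 on the deletion arrays and 116, 80.2 and 177 on the wild-type arrays, 15.6-fold higher. ACS1, the acetyl-CoA synthetase of cells without glucose, read 2657, 2475, 1718 and 1789 on the deletion arrays and 300.1, 304 and 313 on the wild-type arrays, 6.64-fold higher. Its counterpart ACS2, which is used on glucose, was at a log2 change of -0.10, although it passed without clone 3 or wild-type replicate 2 (adjusted p = 0.0164 to 0.0338). In the glyoxylate cycle and gluconeogenesis 9 of 10 rose and MDH3 fell (-0.19). After quantile normalization 5 rose, and the median was 0.35 in place of 0.66. PCK1, which makes phosphoenolpyruvate, read 615, 584, 544 and 578 on the deletion arrays and 113, 115 and 96.01 on the wild-type arrays, 4.82-fold higher. ICL1, isocitrate lyase, and MLS1, malate synthase, rose by 0.95 and 0.85 on the log2 scale. MLS1 was dim, at 62.2, 48.4, 28.8 and 41.7 against 29.7, 4.91 and 23.1, so that its groups overlapped and 1 wild-type array lay under the background limit, and it did not pass after quantile normalization (adjusted p = 0.174). Of the glycerol genes 7 of 10 rose, among them STL1, the glycerol proton symporter (2.50), and GCY1, a glycerol dehydrogenase (1.98).

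Genes of both activators and repressors of these pathways were higher. Of 23 carbon source regulators 14 rose and 4 fell (median 0.85). After quantile normalization 14 rose and 6 fell, with a median of 0.38. CAT8, an activator of gluconeogenic genes, read 795, 684, 449 and 603 on the deletion arrays and 51.5, 39.8 and 52.03 on the wild-type arrays, 10.003-fold higher. ADR1, an activator of genes for ethanol and fatty acid use, read 1965, 1994, 1770.2 and 1558 against 382, 279 and 372, and SIP4, an activator under Cat8, read 119, 113, 115 and 133 against 12.8, 12.1 and 20.2, above the background limit on 2 of the 3 wild-type arrays. All deletion arrays were above all wild-type arrays, and 76.7% of all genes likewise had no overlap. HAP4, the activating subunit of the regulator of respiration, rose by 1.98 on the log2 scale, HAP2 by 0.69 and HAP5 by 0.87. The glucose repressor genes MIG1, MIG2, MIG3 and NRG1 were also higher, by 1.44, 1.79, 1.04 and 1.62. The kinase gene SNF1 was at -0.03, and its partner SNF4 fell by 0.53. SNF1 passed at -0.15 with equal array medians (adjusted p = 0.00692). Of the hexose transporter genes 9 of 17 rose, including the glucose sensors SNF3 (1.14) and RGT2 (0.96), and HXT5, a transporter of slow growth, read 1566, 1434, 878 and 953 against 103, 94.5 and 140.1. The low-affinity transporter HXT1 rose by 0.43 and HXT3 was at 0.06. HXT3 passed at 0.20 after quantile normalization (adjusted p = 0.000225).

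**Figure D3:**
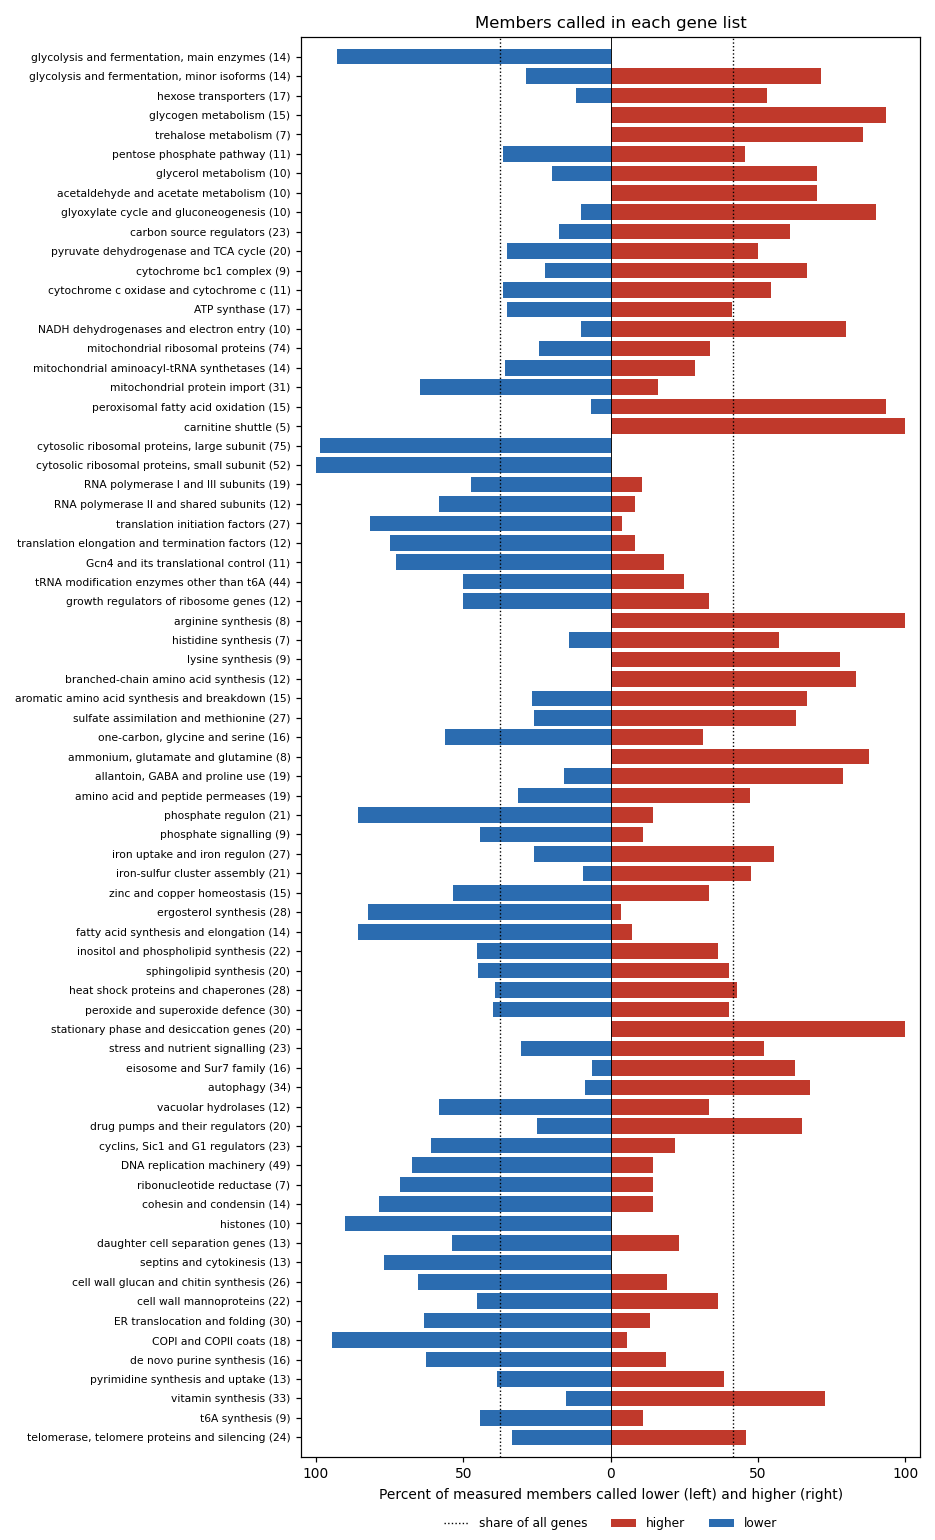
Percent of the measured members of each gene list (number in brackets) that were called lower, to the left, and higher, to the right, with the mating and marker lists left out. Dotted lines mark the shares of all 5449 genes, 37.5% lower and 41.5% higher, and the lists of stationary phase, arginine synthesis and the carnitine shuttle lie wholly to the right.

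Mitochondrial genes had no common direction. Enzymes that feed electrons into the respiratory chain were higher in 8 of 10 cases (median 0.79). NDE2, an external NADH dehydrogenase, read 385, 314, 242 and 241 on the deletion arrays and 43.2, 42.2 and 42.1 on the wild-type arrays, 5.23-fold higher. CYB2, which oxidises lactate, read 409, 393, 301 and 286 on the deletion arrays and 52.7, 47.9 and 64.8 on the wild-type arrays, 5.08-fold higher. Their groups did not overlap, which held for 76.7% of all genes. The TCA cycle list was divided, with 10 of 20 higher and 7 lower (50% and 35%, beside 41.5% and 37.5% of all genes). Its largest rises were CIT3, a citrate and methylcitrate synthase (2.53), and the succinate dehydrogenase subunit SDH2 (1.50038). The largest falls were LAT1 and LPD1, subunits of the pyruvate dehydrogenase complex (-0.58 and -0.52). In the cytochrome bc1 complex 6 of 9 rose, RIP1 by most (0.95). In cytochrome c oxidase and cytochrome c 6 of 11 rose and 4 fell (54.5% and 36.4%). In the ATP synthase 7 of 17 rose and 6 fell (41.2% and 35.3%), near the shares of all genes. Its median of 0.01 became -0.10 with equal array medians. Among the ATP synthase genes, STF2, a stabilising factor also known from desiccation, rose by 1.57, and the subunit ATP15 fell by 0.73.

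The machinery that builds mitochondria gave another picture. Of 31 protein import genes 20 fell and 5 rose (median -0.23). TOM70, an outer membrane receptor, read 1180.1, 1379.6, 1214 and 1261 on the deletion arrays and 2046, 2274 and 2249 on the wild-type arrays, a fall of 0.79 on the log2 scale, and TOM5 of the import pore fell by 0.79. ERV1, the sulfhydryl oxidase of the intermembrane space, rose by 0.81. Of the 74 mitochondrial ribosomal proteins 25 rose and 18 fell, with a median of 0.03, but 13 rose and 39 fell after quantile normalization (median -0.14), so the list has no direction that holds under both scalings. RSM10, of the small subunit, rose by 1.32 and MNP1, of the large subunit, fell by 0.68. Of the mitochondrial aminoacyl-tRNA synthetases 4 of 14 rose and 5 fell, and after quantile normalization 2 rose and 10 fell.

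Fatty acid oxidation, which in yeast takes place in peroxisomes, was higher almost throughout. Of its 15 genes 14 rose, 11 of them at least 2-fold, and the median of the list was 1.41 (0.89 after quantile normalization). POX1, the acyl-CoA oxidase of the first step, read 554, 518, 319 and 323 on the deletion arrays and 21.2, 20.5 and 17.6 on the wild-type arrays, 12.1-fold higher. FOX2, the enzyme of the middle steps, read 1566, 1469, 1076 and 1243 on the deletion arrays and 307, 275 and 294 on the wild-type arrays, 4.36-fold higher. With POT1 of the last step, all 3 enzymes of the main chain were higher in every clone, and again lower in clones 3 and 4 than in 1 and 2. The list median was 1.73 with clones 1 and 2 and 1.05 with clones 3 and 4. SPS19, DCI1 and ECI1, which act on unsaturated chains, rose by 2.75, 1.89 and 1.03. The peroxisomal adenine nucleotide carrier ANT1 fell by 0.63. Of the carnitine shuttle, which moves acetyl units into mitochondria, 5 of 5 genes rose (median 2.45). CAT2, the carnitine acetyltransferase of peroxisomes and mitochondria, read 1583, 1736, 1021 and 1141 on the deletion arrays and 131, 133 and 124 on the wild-type arrays, 9.33-fold higher. YAT1 and YAT2, the other acetyltransferases, rose by 2.45 and 2.33.

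Isoforms of the same enzyme were compared as pairs. Of 69 measured pairs of isoforms or paralogs, 20 had both genes called in opposite directions, 16 had both higher, 16 both lower and 17 not both called. Opposite pairs were thus 29.0%, near the 31.1% found among all possible pairs of tested genes, so the count is no result about isoforms, and the pairs below are given for their values. The widest split was in cytochrome c. CYC1, the main isoform, read 161, 131, 140.1 and 149.9 on the deletion arrays and 684, 626 and 699.6 on the wild-type arrays, 4.25-fold lower. CYC7, the minor isoform, read 866, 894, 512 and 571 on the deletion arrays and 147, 133 and 174 on the wild-type arrays, 4.25-fold higher. In neither gene did the groups overlap. In glucose metabolism the genes of the main isoforms HXK2, GPM1, PDC1, CDC19 and GPP1 were slightly lower and those of HXK1, GLK1, GPM2, PDC6, PYK2 and GPP2 higher. HXK2, the main hexokinase, read 4140.4, 4651, 4488 and 4545 against 4720.2, 4916 and 4908, while HXK1 read 5635, 5867, 4965 and 5205 against 2716, 2445 and 2805. Most of these calls were lost after quantile normalization. There HXK2, GPM1 and PDC1 changed sign and did not pass, CDC19 and GPP1 were at -0.02 and -0.05 (adjusted p = 0.39 and 0.382), and GPM2 and PDC6 were at 0.06 and 0.25 (adjusted p = 0.537 and 0.165). In phosphoglucomutase both changes were large, PGM1 at -1.63 ± 0.059 and PGM2 at 1.16 ± 0.11 on the log2 scale.

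Both genes were also called in opposite directions for GND1 and GND2 (-0.30 and 2.68) and for TAL1 and NQM1 (-0.39 and 2.48). SER33 and SER3, isoforms of the first enzyme of serine synthesis, were at -0.94 and 1.32. SER3 read 1868, 1700.4, 1959 and 1817 on the deletion arrays and 778, 699 and 705 on the wild-type arrays, and SER33 read 778, 827, 749.7 and 785 on the deletion arrays and 1428, 1590.3 and 1529.8 on the wild-type arrays. Among S-adenosylmethionine synthetases SAM2 fell by 1.14 and SAM1 rose by 0.22, although these genes are nearly identical and their probe sets may share signal. The chaperone genes SSA1 and HSC82 were lower and SSA3 and HSP82 higher. TSA1, the main thioredoxin peroxidase, fell and TSA2 rose (-0.48 and 1.58). SUR7 of the plasma membrane was at -0.36 and its relative FMP45 at 3.18. The elongation factor 3 gene YEF3 was at -0.18 and its rarely used copy HEF3 at 1.06. The remaining pairs were the glucan synthases FKS1 and GSC2, the GTPases RAS1 and RAS2, and the amino acid permeases TAT1 and TAT2. The call of GPM1 was lost without clone 3 or 4 or wild-type replicate 1 or 3 (adjusted p = 0.0537 to 0.077). That of RAS2 was lost without clone 1 or 2 or wild-type replicate 1 or 2 (adjusted p = 0.0514 to 0.164). That of TAT2 was lost without wild-type replicate 1 (adjusted p = 0.071). With equal array medians RAS2 was at 0.03 and TAT2 at 0.02, and neither passed (adjusted p = 0.625 and 0.655, limma).

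**Figure D4:**
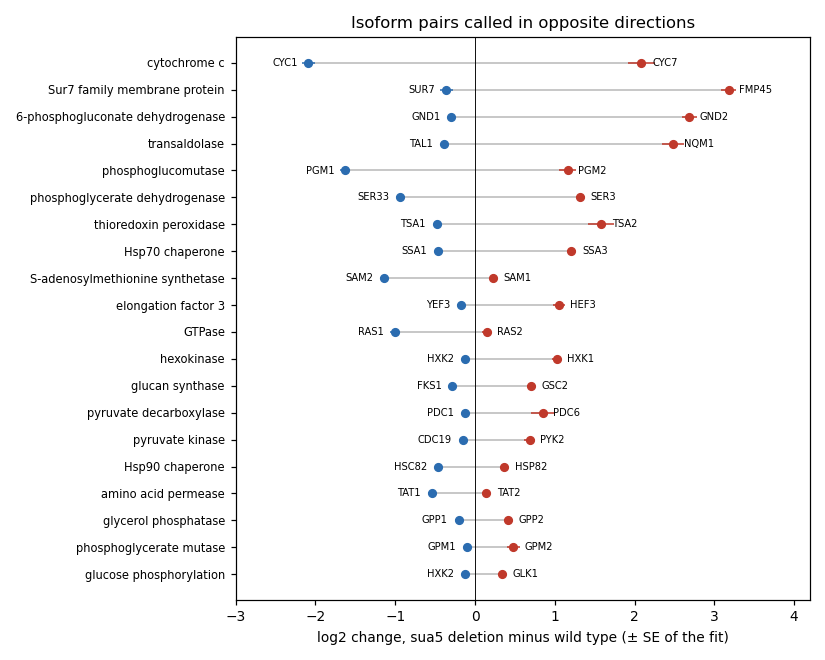
Log2 change, with the standard error of the fit as bars, of both genes of the 20 isoform pairs called in opposite directions, lower genes in blue and higher genes in red. Cytochrome c has the widest split (-2.09 and 2.09), and the blue points nearest 0 (HXK2, GPM1 and PDC1) change sign after quantile normalization.

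Ribosomal protein genes and most translation factor genes were slightly lower. Of the large subunit's ribosomal proteins 74 of 75 fell (median -0.33) and of the small subunit's 52 of 52 (-0.36). After quantile normalization 61 and 41 fell, with medians of -0.17 and -0.21. The sizes were mostly small, and RPS28B fell by most. It read 997, 921, 1063 and 964 on the deletion arrays and 3172, 3522 and 3195 on the wild-type arrays, a log2 change of -1.72. RPL41A, whose probe set is shared with another gene, read 259, 274, 358 and 292 against 468, 1093 and 486, a log2 change of -1.06 that was -0.67 without wild-type replicate 2. Many ribosomal proteins have 2 nearly identical genes, whose probe sets may share signal. Of the initiation factors 22 of 27 fell and 1 rose (median -0.23), TIF4631, the scaffold eIF4G1, falling by most (-0.83). Of the elongation and termination factors 9 of 12 fell and 1, HEF3, rose (median -0.20). After quantile normalization 16 and 7 fell, with medians of -0.15 and -0.08. RLI1, needed to recycle ribosomes, fell by 0.55, and ANB1, the hypoxic form of eIF5A, fell by 2.06, whereas the aerobic form HYP2 was at -0.23.

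ANB1 and CYC1 are neighbours on the chromosome and fell to a similar extent. ANB1 read 64.2, 80.3, 98.7 and 88.1 on the deletion arrays and 393, 427 and 364 on the wild-type arrays. The genes on either side of the pair did not pass. UTR1, beside CYC1, was at a log2 change of -0.09 ± 0.050 (adjusted p = 0.115), and TAH11, beside ANB1, at 0.08 ± 0.057 (adjusted p = 0.235). UTR1 passed at -0.20 with equal array medians and at -0.14 after quantile normalization (adjusted p = 0.00239 and 0.0211).

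Gcn4, the activator of amino acid synthesis genes, is made when the initiation factor eIF2 is held back. GCN4 transcript rose by 0.34 on the log2 scale, reading 5497, 6048, 5828 and 5765 against 4524, 4634 and 4574. Most genes that control its translation were lower, 8 of 11 (median -0.41). They included the eIF2 kinase GCN2 (-0.41), its activator GCN1 (-0.66) and GCN3, a subunit of the exchange factor eIF2B (-0.80). YIH1, an inhibitor of Gcn2 activation, rose by 0.42. Among RNA polymerase I and III subunits 9 of 19 fell and 2 rose, RPC82 by most (-0.95), and among polymerase II and shared subunits 7 of 12 fell (4 after quantile normalization). Of 12 regulators of ribosome genes 4 rose and 6 fell. The repressors DOT6 and STB3 were at 0.96 and 0.82, and MAF1, the repressor of polymerase III, at 0.48. IFH1, the coactivator of ribosomal protein genes, fell by 0.86, and TOD6, a relative of Dot6, fell by 0.45.

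Amino acid synthesis was mostly higher, unevenly by pathway. Arginine synthesis stood at 8 of 8 genes higher, with a median log2 change of 1.72. ARG1 rose by 3.94, and ARG3, ornithine carbamoyltransferase, read 1272, 1153, 1112 and 1115 on the deletion arrays and 114, 86.8 and 109 on the wild-type arrays, 9.92-fold higher. CPA1, of carbamoyl phosphate synthesis, read 3931, 4126, 4136 and 3996 on the deletion arrays and 1244, 1250.0 and 1282 on the wild-type arrays, 3.19-fold higher. Every clone was above the wild type in both genes. Of the lysine genes 7 of 9 rose (median 0.49), a count that includes the marker LYS2. The clones differed, with a median of 0.15 with clones 1 and 2 and 0.79 with clones 3 and 4, the clones that expressed LYS2. LYS1, the last enzyme, read 1148, 1026, 1509.5 and 1584 on the deletion arrays and 434, 418 and 467 on the wild-type arrays. Of the branched-chain genes 10 of 12 rose, none of them 2-fold, led by LEU4 (0.74) and ILV6 (0.73). Of the histidine genes 4 of 7 rose and HIS6 fell (-0.42).

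Of the 15 listed genes of aromatic amino acid synthesis and breakdown 10 rose and 4 fell. ARO3, of the first step of synthesis, rose by 1.34, and ARO4, TRP2, TRP3 and TRP4 by 0.58 to 0.71. ARO9, the transaminase of breakdown, read 538, 367, 347 and 409.9 against 1004, 976 and 1113, and with ARO10 and their activator ARO80 (-0.35) it fell. In sulfate assimilation and methionine synthesis 17 of 27 rose and 7 fell (median 0.50). MET13, of methyl group synthesis, was at 2.08 and MET28, a coactivator of the pathway, at 1.89. MET13 is a methylenetetrahydrofolate reductase gene, but the list of one-carbon, glycine and serine genes fell in 9 of 16 cases (median -0.27, and -0.11 after quantile normalization). In it SER2, the last enzyme of serine synthesis, read 314, 308, 318 and 382 on the deletion arrays and 958, 969.9 and 1065 on the wild-type arrays, a fall of 1.55 on the log2 scale.

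Most genes for poorer nitrogen sources were higher under the deposited scaling. Of the ammonium, glutamate and glutamine genes 7 of 8 rose (median 0.46). MEP2, the high-affinity ammonium transporter and sensor, read 1019, 976, 1086 and 937 on the deletion arrays and 194, 185 and 174 on the wild-type arrays, 5.08-fold higher. GDH3, the glutamate dehydrogenase of cells without glucose, read 1569, 1383, 733 and 744 on the deletion arrays and 159.8, 164 and 171 on the wild-type arrays, 5.86-fold higher, while GDH1, the main form, rose by 0.42. Of the genes for allantoin, GABA and proline 15 of 19 rose (median 0.76), and after quantile normalization 10 rose (median 0.48). Besides PUT4 these were led by DAL2 (2.72). PUT1, the first enzyme of proline use, rose by 1.37, and PUT2, the second, fell by 0.70. Amino acid and peptide permeases had 9 of 19 higher and 6 lower, and their median of 0.14 became -0.15 after quantile normalization. GAP1, the general permease, read 907, 808, 1074 and 907 on the deletion arrays and 203, 166 and 181 on the wild-type arrays, 4.71-fold higher. AGP1 and MUP3 rose by 1.46 and 1.53, in contrast to PTR2.

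The phosphate regulon fell in 18 of 21 genes, 11 of them at least 2-fold, where 2.73% of all genes fell as far (median -1.26). The 4 listed subunits of the vacuolar polyphosphate polymerase fell. VTC1 was at -1.75, VTC2 at -0.89, VTC3 at -2.91 and VTC4 at -2.07. PHO81, the inhibitor of the phosphate-sensing kinase, read 555, 594, 599 and 536 on the deletion arrays and 2034, 1906 and 1867 on the wild-type arrays, a fall of 1.73 on the log2 scale. PHO89, the sodium-coupled transporter, read 702, 672, 375 and 389 against 1323, 1435 and 1327. Low-affinity transporters differed, with PHO91 at -0.75 and PHO87 at 0.70. Of the signalling genes PHO85, the kinase, was at -0.02, and PHO4, the activator, at -0.13, although it passed without wild-type replicate 2 (adjusted p = 0.0174) and after either other scaling. PHO80, the cyclin of that kinase, read 726, 667, 733 and 801 on the deletion arrays and 361, 324 and 368 on the wild-type arrays, 2.04-fold higher.

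Iron genes moved in both directions. Of 27 iron uptake and regulon genes 15 rose and 7 fell. The reductases FRE3 and FRE4, which act on iron bound to siderophores, were at 1.54 and 1.40, and the siderophore transporters SIT1, ARN1, ARN2 and ENB1 rose by 0.56 to 1.14. FRE1, the main surface reductase, read 1031, 1083, 879.8 and 877 on the deletion arrays and 2259, 2337 and 2734 on the wild-type arrays, a fall of 1.32 on the log2 scale, and FTR1, the high-affinity permease, was at -1.07. FIT1 rose by 1.79 and FIT2 fell by 1.17, although both are cell wall proteins that hold siderophores. In iron-sulfur cluster assembly 10 of 21 rose (47.6%, beside 41.5% of all genes) and 2 fell. ISU1, a scaffold, rose by 1.58, and after either other scaling 6 genes of the list fell. In zinc and copper homeostasis 5 of 15 rose and 8 fell. CTR1, the copper transporter, was at -0.79 and CRS5, a metallothionein, at 1.04.

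Most genes of sterol and fatty acid synthesis were lower. Of 28 ergosterol genes 23 fell (median -0.51). ERG5, a late desaturase, read 671, 595, 671 and 635 on the deletion arrays and 1983, 1853 and 1887 on the wild-type arrays, a fall of 1.55 on the log2 scale, and ERG6 fell by 1.28. The regulator ECM22, an activator of sterol genes, rose by 1.00. Of 14 fatty acid synthesis and elongation genes 12 fell (median -0.43). FAS1 and FAS2, the subunits of fatty acid synthase, were at -0.51 and -0.46, and OLE1, the desaturase, rose by 0.16, a call lost with equal array medians. Phospholipid genes had 8 of 22 higher and 10 lower. EPT1, an ethanolamine phosphotransferase, was at -1.29, while INO4, an activator of phospholipid genes, was at 1.01. Sphingolipid genes had 8 of 20 higher and 9 lower, with ORM2, an inhibitor of the pathway's first enzyme, at 1.00 and TSC10 at -0.73.

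All 20 listed genes of stationary phase and desiccation were higher, 15 of them at least 2-fold (median 1.72), although harvest was in mid-log growth. Like the other lists, this list was chosen with earlier results of these data known, which favours such a count. SIP18 and GRE1, hydrophilins of dry cells, were at 3.54 and 3.38. SIP18 read 725, 606, 551 and 532 on the deletion arrays and 45.04, 24.95 and 42.6 on the wild-type arrays, 11.7-fold higher. XBP1, a repressor of cell cycle genes in resting cells, read 476, 411, 336 and 340.3 on the deletion arrays and 36.96, 43.2 and 66.5 on the wild-type arrays, 6.32-fold higher. All clones were above the wild type for both. The smallest change was that of SED1 (0.11), whose call was lost without clone 2, 3 or 4 or wild-type replicate 1 or 3 (adjusted p = 0.076 to 0.0994) and whose sign turned with equal array medians. Chaperones had no common direction, with 12 of 28 higher and 11 lower. HSP12 and HSP30, which are not folding chaperones in the usual sense, were at 1.76 and 1.55, and HSP104, the disaggregase, was at -0.0019. HSP104 passed at -0.12 with equal array medians and at 0.15 after quantile normalization (adjusted p = 0.0182 and 0.00425). In peroxide and superoxide defence 12 of 30 rose and 12 fell (40% each, near the 41.5% and 37.5% of all genes). CTT1, the cytosolic catalase, read 3441, 3149, 2319.7 and 2666 on the deletion arrays and 319, 294 and 449 on the wild-type arrays, 7.90-fold higher, and GPX2, a peroxidase, fell by 0.92.

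Autophagy genes were higher in 23 of 34 cases and lower in 3 (median 0.43), with 17 higher and 7 lower after quantile normalization (median 0.19). ATG34 and ATG29 rose by 1.90 and 1.60. ATG8, the ubiquitin-like protein of the autophagosome, read 791, 845, 689 and 703 on the deletion arrays and 264, 282 and 256 on the wild-type arrays, 2.72-fold higher, and ATG1, the initiating kinase, read 901, 858, 888 and 893 against 353, 361 and 304. ATG18 and ATG2 fell by 0.44 and 0.38. Vacuolar hydrolases had 4 of 12 higher and 7 lower, with the protease PRB1 at 1.28 and the carboxypeptidase PRC1 at -0.43. Among signalling genes 12 of 23 rose and 7 fell. The activators MSN4 and GIS1 and the kinase YAK1, which is held back by protein kinase A, were at 0.95, 1.43 and 1.84. MSN2 rose by 0.45. RAS1 read 344, 322, 353 and 339 on the deletion arrays and 711, 687 and 691 on the wild-type arrays. In the eisosome list 10 of 16 rose, while PIL1, its main structural protein, was at -0.05. PIL1 passed at -0.16 with equal array medians and at 0.10 after quantile normalization (adjusted p = 0.00137 and 0.00263). Of the drug pumps 13 of 20 rose (median 0.54), with QDR3 at 1.95 and YOR1 at -0.64.

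Genes of the cell cycle were lower in several phases. In samples of whole cultures, fewer cells in a phase and less RNA per cell cannot be told apart. Of 23 cyclin and G1 regulator genes 14 fell and 5 rose (median -0.32). The G1 cyclins CLN1 and CLN2 and the late G1 cyclin PCL1 were at -1.24, -0.82 and -2.29. PCL1 read 32.6, 32.7, 46.3 and 33.8 on the deletion arrays and 239, 266 and 212 on the wild-type arrays. CLN3, the upstream G1 cyclin, read 1467, 1408, 1506 and 1445 on the deletion arrays and 1007, 851 and 879 on the wild-type arrays, 1.59-fold higher, so it moved the other way. SWI4, an activator subunit of late G1 genes, rose by 0.65. FAR1, which is also a pheromone response gene, fell by 2.23. The pheromone response list had 12 of 25 genes lower and 4 higher. Mating type differed between the sides, and its part in the cell cycle falls cannot be told apart.

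Of the 49 genes of the replication machinery 33 fell and 7 rose (median -0.47). CDC6, which loads the replicative helicase, read 89.3, 85.8, 126 and 108 on the deletion arrays and 342, 317 and 283 on the wild-type arrays, and POL12, of the primase complex, was at -1.40. PSF2, of the GINS complex, rose by 1.05. RNR1, the large subunit of ribonucleotide reductase, read 832, 929.5, 946 and 917 on the deletion arrays and 2887, 2575 and 2666 on the wild-type arrays, 2.96-fold lower, and 5 of 7 genes of that enzyme and its regulators fell. Of 14 cohesin and condensin genes 11 fell, MCD1 and SMC3 by 2.09 and 1.35. Of 10 histone genes 9 fell (median -0.80), and the centromeric histone gene CSE4 was at -0.09. CSE4 passed at -0.20 with equal array medians and at -0.41 after quantile normalization (adjusted p = 0.0185 and 0.000192), where all 10 fell. Septins and cytokinesis genes fell in 10 of 13 cases (median -0.59), BNI5 by 0.78 and CDC11 by 0.71. Of the genes for separation of the daughter cell 7 of 13 fell and 3 rose. ASH1 was at -0.71, and CTS1, the chitinase, at 0.04. CTS1 passed at 0.19 after quantile normalization (adjusted p = 0.000562).

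Genes of the secretory route were mostly lower. Of 18 genes of the COPI and COPII vesicle coats 17 fell (median -0.56), SEC27 by most (-0.83). SEC24, the cargo adaptor of COPII, read 1484, 1519, 1505 and 1538 on the deletion arrays and 2479, 2480.4 and 2399.6 on the wild-type arrays. SEC13, which COPII shares with the nuclear pore, was called higher (0.09), but the call was lost without deletion clone 3 or 4 or wild-type replicate 2 (adjusted p = 0.0552 to 0.0878) and the sign turned with equal array medians. Of 30 genes of translocation and folding in the endoplasmic reticulum 19 fell and 4 rose (median -0.29). LHS1, a chaperone of the lumen, and SEC63, of the translocon, were at -0.96 and -0.84. MPD1 and ERO1, of disulfide formation, were at 0.43 and 0.30. Of the glucan and chitin genes 17 of 26 fell and 5 rose, with EXG1 at -0.95 and SKN1 at 1.06. Mannoproteins were split, 8 of 22 higher and 10 lower (36.4% and 45.5%, beside 41.5% and 37.5% of all genes). YPS6, a putative cell surface protease, read 708, 629.8, 599 and 665 on the deletion arrays and 87.6, 96.05 and 126 on the wild-type arrays, while the related YPS3 fell by 1.16.

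Purine synthesis fell in 10 of 16 genes (median -0.28). ADE17, of the last steps to IMP, read 1432, 1081, 1302 and 1179 on the deletion arrays and 4762, 5240.3 and 4943 on the wild-type arrays, 3.97-fold lower, whereas its isoform ADE16 was at -0.28. IMD2, of guanine nucleotide synthesis, whose probe set is shared with another gene, rose by 0.66. Its change was 0.25 with clones 1 and 2 and 1.07 with clones 3 and 4. Pyrimidine genes had 5 of 13 higher and 5 lower. URA10, the minor orotate phosphoribosyltransferase, was at 1.49824 and URA5, the major one, at -0.33. Vitamin synthesis was higher in 24 of 33 genes (median 0.86, and 0.55 after quantile normalization), 13 of them at least 2-fold. SNZ1, the partner of SNO1 in vitamin B6 synthesis, read 4505, 4842, 4467 and 4208 on the deletion arrays and 350.4, 419.6 and 322 on the wild-type arrays, 11.95-fold higher. BIO2, biotin synthase, read 197, 215, 208 and 205 on the deletion arrays and 556, 525 and 527 on the wild-type arrays, 2.48-fold lower, and THI80, which activates thiamine, fell by 0.59. BNA2, the first enzyme of NAD synthesis from tryptophan, and RIB5, the last of riboflavin synthesis, rose by 2.14 and 1.81. The groups did not overlap in either, which held for 76.7% of all genes.

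Other genes of the t6A pathway showed small changes. The KEOPS genes BUD32, PCC1 and CGI121 were at log2 changes of 0.08 ± 0.046, 0.10 ± 0.066 and -0.06 ± 0.10. CGI121 was at -0.33 after quantile normalization and then passed (adjusted p = 0.0095). KAE1, the catalytic subunit, read 1722, 1566, 1692 and 1773 on the deletion arrays and 1214, 1166 and 1306 on the wild-type arrays, and GON7 fell by 0.25, a call lost without clone 2 or wild-type replicate 1 or 3 (adjusted p = 0.0552 to 0.13). TCD2, of the enzymes that close t6A into its cyclic form, read 396, 397, 427 and 383 on the deletion arrays and 625, 613 and 602 on the wild-type arrays, a fall of 0.60 on the log2 scale, and TCD1 was at 0.07. QRI7, the mitochondrial counterpart of Kae1, fell by 0.23, a call lost without clone 4 or wild-type replicate 2 or 3 (adjusted p = 0.0637 to 0.0909). Of 44 genes of other tRNA modifications 22 fell and 11 rose (median -0.13, and -0.21 after quantile normalization). ELP3, the catalytic subunit of Elongator, which modifies wobble uridines, fell by 1.01, and TAD1, an adenosine deaminase of alanine tRNA, rose by 0.90. The measured genes on either side of SUA5 did not pass, SPO74 with a log2 change of 0.04 ± 0.11 (adjusted p = 0.767) and HUR1 with 0.10 ± 0.11 (adjusted p = 0.414). HUR1 passed without wild-type replicate 1 (adjusted p = 0.0246), and so did PCC1 without wild-type replicate 3 (adjusted p = 0.0352).

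Telomere and silencing genes were split, 11 of 24 higher (45.8%) and 8 lower (33.3%), near the 41.5% and 37.5% of all genes. After quantile normalization 8 were higher and 12 lower, and with equal array medians 10 and 10. All 3 genes of the CST complex, which caps telomeres, rose, CDC13 by 0.93, STN1 by 0.81 and TEN1 by 1.20. CDC13 read 202, 227, 239 and 231 on the deletion arrays and 88.8, 125 and 120.1 on the wild-type arrays. The silencing genes SIR2, SIR3 and SIR4 fell by 0.62, 0.81 and 0.43, and DOT1, a histone methyltransferase, fell by 1.01, while SIR1, which acts at the silent mating loci, and SAS5 rose by 0.74 and 1.22. EST1, EST2 and EST3, of telomerase, were at 0.63, 0.42 and 0.67, with EST2 at -0.0049 after quantile normalization.

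Most genes nearest the chromosome ends were higher. Of the 5 outermost genes at each end, 73 of 98 measured ones rose and 7 fell (median 0.66). At ranks 6 to 10 the median was 0.55, at 11 to 15 it was 0.22, at 16 to 20 it was 0.08, at 21 to 30 it was -0.06, at 31 to 50 it was -0.02, and beyond rank 50 it was 0.01. Without probe sets shared between genes, the outermost 57 genes had a median of 0.75. After quantile normalization the first 4 medians were 0.35, 0.21, 0.06 and 0.01 and the last was -0.08. The outermost genes were also dimmer, with a median intensity of 204 against 675 beyond rank 50, and dim genes rose more under the deposited scaling. The part of brightness in the rise was not tested. By chromosome the medians ran from -0.02 to 0.13.

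**Figure D5:**
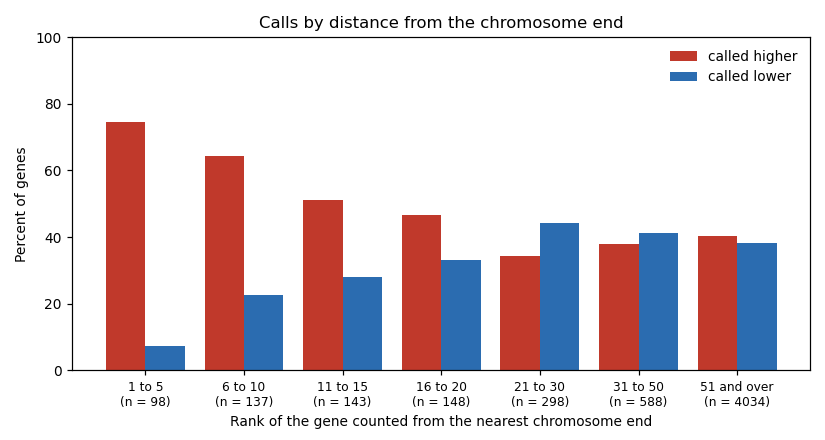
Percent of genes called higher and lower by rank from the nearest chromosome end, with the number of genes in brackets. Higher calls are at 74.5% in the 5 outermost genes, lowest at ranks 21 to 30 (34.2%) and 40.4% beyond rank 50, and lower calls are at 7.14%, 44.3% and 38.2% there.

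The largest changes were mostly kept at the 12th restreaking, labelled as 300 generations after sporulation (3 arrays). Between the 12th and the first restreaking 15.9% of all genes were called, and 7 of the 24 largest rises and falls. Of these 7, 6 had moved toward the wild type, a direction favoured by the choice of genes for extreme values at the first restreaking. JEN1 read 427, 535 and 511 at the 12th restreaking, 1.82-fold lower than at the first (adjusted p = 0.0209). ADY2 read 911, 1093 and 971, 1.66-fold lower (adjusted p = 0.0255). ARO10 read 197, 210.4 and 182, 1.63-fold higher (adjusted p = 0.00101), still below its wild-type arrays, and PTR2, PHO84 and YNL018C moved likewise. HO read 101, 82.8 and 77.6, farther from the wild type (1.48-fold lower, adjusted p = 0.0105). Both comparisons use the arrays of the first restreaking, of which only clones 3 and 4 expressed both LYS2 and MET17. Between the 12th and the first restreaking these markers were at log2 changes of -2.71 and -2.88 (adjusted p = 0.214 and 0.237, limma). The part of the markers in the differences between restreakings was not tested.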

How the data were processed

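Biotin-labelled RNA was measured on Affymetrix yeast arrays, 1 per sample, per the labels' protocols. The authors deposited a single intensity, on a linear scale, for every probe set on an array. The mean intensity without the outer 2% at each end was 500.2 on every array, so each was scaled to a common target, which makes strains comparable only if their mean signal is alike. The software, background correction and summary are not given in the sources used here. The table holds 10928 probe sets, of which 5498 are annotated to 1 S. cerevisiae gene. Symbols were updated through the R64 RefSeq gene table, and 47 genes with several probe sets took the one with the highest mean, which left 5449. The 1746 probe sets of S. pombe gave the background limit, their percentile 95 on each array.

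Intensities were taken as log2(intensity + 16), so folds of dim genes are understated. Groups came from the titles. The test was that of limma 3.58.1 under R 4.3.3 (group means fitted to all 10 arrays, eBayes with intensity trend, two-sided, Benjamini-Hochberg over the 5449 genes, threshold 0.05), and the code was checked on simulated data. No further scaling was applied. A change called higher or lower passed this test, and values after ± are standard errors of the fit. A fold given as "at least" sets the bright group's mean log2 intensity against the higher of limit and measured value on each array of the dim group. The series text calls the clones independent, but no source here says that their RNA was prepared apart, so p-values measure the spread between these samples, which may be technical. No scan dates or batches are given in the files. Alternatives were the scaling, pseudocount, filter on dim genes, probe set rule, intensity trend, arrays in the fit, clone pairs, replicate block, background limit and leaving out each array.

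The members, 76 gene lists and 70 isoform pairs (69 measured) were chosen with earlier results of these data known. Lists are described by counts and medians and not tested, and 40 list members did not match a tested gene. Named by rule were SUA5, the mating and marker genes, the 12 largest rises and falls with arrays that do not overlap, the 2 largest rises and falls of each list, any member of lists of up to 24 genes, the opposite isoform pairs, the neighbours of SUA5, and the 8 largest bounds among genes seen on 1 side. ARN1, ARN2, ATG1, ATG8, BNA2, ENB1, FRE4, FTR1, HSP104, RIB5, SIT1, TAH11 and UTR1 were named after their values were seen. Promoter motifs and sequences were not analysed here, and no coordinates are printed because the files name no genome build.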

Additional observations from a re-analysis of the deposited data

Results flagged for a closer look

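In 11 of the 311 genes named in the text, 1 of the 4 deletion arrays lay far from the other 3, with a gap to the nearest that passed Dixon's critical share of the group's range. Chance flags about 1 in 20 such groups. CLB6 read 105.2 in clone 3 and 77.6 to 79.5 in the others, and PCL1 read 46.3 in clone 3 and 32.6 to 33.8 in the others, both far below the wild type. CDC11 read 826 in clone 3 (others 810.2 to 811), HIS6 449.8 in clone 3 (399 to 407) and HSP82 3803 in clone 3 (3962 to 3983). HO read 99.4 in clone 2 (148 to 154), GPM1 8515 in clone 2 (7829 to 7919) and PIL1 5093 in clone 2 (4882 to 4910.4). PUT2 read 599 in clone 1 (525 to 535). ATP15 read 1110.1 in clone 4 (1031 to 1043.5) and SER2 382 in clone 4 (308 to 318).

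Outside the genes tested, 1 of 47 probe sets for reporter and other control sequences was at least 10-fold brighter in the deletion strain than in the wild type. Its mean was 7467 over the 4 deletion arrays, and it read 7.26 to 14.97 on the wild-type arrays. The files do not pair this probe set with a gene of yeast.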

How the results depend on the processing

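Of the 291 named genes that were called, 273 kept direction and call under every alternative. The 4306 calls became 4150 with clone pairs averaged, 4239 with the 7 arrays alone, 4284 without an intensity trend, 4303 and 4305 with a pseudocount of 1 and 64, and 4185 to 4264 without any 1 array. The calls of at least 2-fold (708) ranged from 698 to 730 without any 1 array, and pseudocounts of 1 and 64 gave 811 and 544. Scaling moved the split, to 1958 higher and 2475 lower with equal medians and 1806 and 2400 after quantile normalization, where falls of at least 2-fold numbered 232 in place of 149. Opposite isoform pairs numbered 17 after quantile normalization, 26 with equal medians and 17 to 21 without any 1 array. With percentile 99 as the background limit, 34 genes in place of 15 were seen in the deletion only, a higher limit by construction.

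The sign turned for EST2 (-0.0049), GPM1 (0.010), HXK2 (0.026) and PDC1 (0.038) after quantile normalization, for SEC13 (-0.020) and SED1 (-0.0031) with equal medians, and for LYS2 (-0.033) with clones 1 and 2 alone. The cause was not tested. Of 76 list medians, 64 kept their sign under every alternative. Among the other 12, the medians of mitochondrial ribosomal proteins, amino acid permeases and telomere genes fell below 0 after quantile normalization (-0.14, -0.15 and -0.17).

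With the replicate number as a block, 3922 genes were called and 13 isoform pairs were opposite. Deviations of the deletion and wild-type arrays numbered 2 and 3 correlated at 0.023 and -0.081 across genes. Those of deletion clones 1 and 3 correlated at -0.76, so the clone pairs shape these deviations. The low values therefore cannot settle whether the numbers pair the samples. Genes near the background limit of 10.8 to 17.5 have imprecise folds.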
